A study of Mus musculus with 7 samples.

Results

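The 7 mouse genes that encode subunits of the NMDA receptor, Grin1, Grin2a, Grin2b, Grin2c, Grin2d, Grin3a and Grin3b, were examined for Fos binding in the hippocampus after saline or kainic acid. They are the named subunit genes among 21887 protein-coding genes of the gene table, and the rule used no measured value, though the family was picked with earlier results of these data known. A peak was counted for a gene when it overlapped the gene's annotated span (GRCm38) or the 10 kb on either side, called the window here. The data were 6 lists of peaks from chromatin immunoprecipitation and sequencing (ChIP-seq) with a monoclonal antibody against Fos, 1 list per library. Of the 287 peaks in the 7 windows, 39, 153 and 91 came from kainic acid replicates 1, 2 and 3, and 0, 4 and 0 from saline replicates 1, 2 and 3.

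All libraries came from wild-type C57BL/6J mice aged 2 months. One group of 3 libraries was from animals given saline. The other 3 were from animals given kainic acid, a seizure-provoking agonist of glutamate receptors, at 10 mg/kg into the peritoneum in 2 doses 30 min apart. Their hippocampi were taken 1 hour after the first dose, from animals whose seizures had reached level 4. The number of animals behind each library is not stated, nor whether libraries came from separate animals, so p-values measure only the spread between these libraries, which may be technical. The whole hippocampus was used, so more cells with Fos on a site and more Fos per cell cannot be told apart. An input library from the saline condition has no peak list here.

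NMDA receptors are glutamate-gated cation channels that let calcium into the postsynaptic neuron when glutamate binding coincides with depolarisation. Each channel needs GluN1, the product of Grin1, joined by GluN2 subunits (Grin2a to Grin2d), which bind glutamate and set the channel's kinetics, or by GluN3 subunits (Grin3a and Grin3b), which bind glycine. In the adult hippocampus GluN2A and GluN2B are the main GluN2 subunits. Calcium entry through these channels is among the signals that switch on the Fos gene. Fos protein pairs with Jun proteins as AP-1, which binds short DNA sites. These were searched for here with the broad pattern TGANTCA, in which N is any base. The subunit genes are thus part of the machinery upstream of Fos, and the peak lists show where Fos sits near them.

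The lists differed greatly in length, which sets what they can show. Kainic acid replicate 1 gave a list of 15009 peaks, replicate 2 one of 63197 and replicate 3 one of 29650, while the saline lists had 7, 3277 and 2. Read totals do not come with the lists. A region absent from a list is one that was not called there. The lowest deposited −log10 q was between 1.35 and 1.38 in the 4 long lists and 4.22 and 8.64 in the lists of saline replicates 1 and 3.

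Every kainic acid list had more peaks near the subunit genes than any saline list. The 3 kainic acid lists had on average 94.3 ± 57.1 such peaks (SD, n = 3) and the 3 saline lists 1.33 ± 2.31. On the scale log10(peaks + 1), the means were 1.92 ± 0.295 and 0.233 ± 0.404, a difference of 1.68, and the two-sided exact permutation test over 20 assignments gave p = 0.100, the smallest value that 3 against 3 allows. The number of peaks in a list grows with its length, so the share of each list was also taken. It was 0.260%, 0.242% and 0.307% in kainic acid replicates 1, 2 and 3. In saline replicate 2 it was 0.122% (4 of 3277 peaks, 95% Clopper-Pearson interval 0.0333 to 0.312), an interval that contains all 3 kainic acid shares. Intervals cover counting error only. The zeros of the other saline lists rest on 7 and 2 peaks and allow shares up to 41.0% and 84.2%, so a difference between the groups in the share of peaks at these genes was not detectable at this depth.

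Most of the kainic acid peaks near the family lay at a pair of genes. Grin2a and Grin2b, set apart here after their values were seen, held 35 of 39, 141 of 153 and 86 of 91 peaks in replicates 1, 2 and 3. Their windows, 929 kb of 1305 kb in all, had 4.46, 4.07 and 5.38 times the peak density of the merged windows of all protein-coding genes in the same list. The windows of the other 5 genes had 1.26, 0.853 and 0.772 times that density. These 5 were not alike, as Grin1 by itself had 4.93, 3.35 and 3.63 times that density and Grin3a 0.578, 0.262 and 0 times. The Grin1 values rest on 2, 6 and 3 peaks, of which 0, 2 and 1 had their summit inside the gene span.

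**Figure D1:**
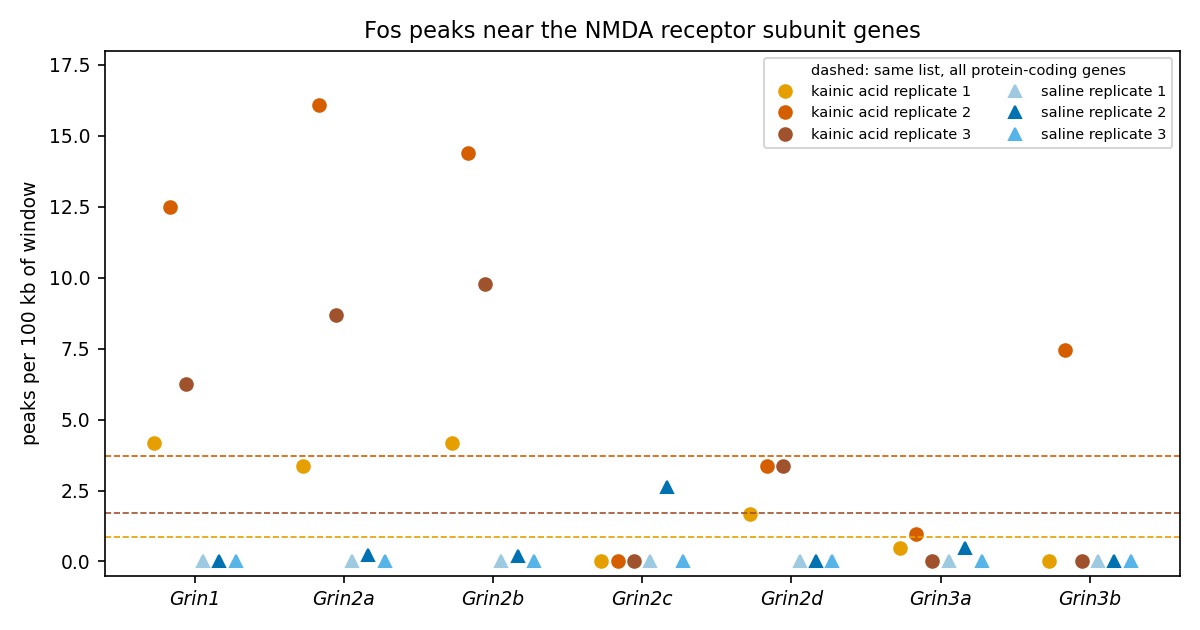
Peaks per 100 kb of window near each subunit gene, 1 point per library, with circles for kainic acid and triangles for saline. Dashed lines give the density of the same kainic acid list over all protein-coding genes (0.846, 3.73 and 1.72). Grin1, Grin2a and Grin2b lie above the line of their own list in all 3 kainic acid lists, while Grin3a lies below it in all 3 and Grin2c has a saline peak only.

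Peaks of all 6 lists that overlapped by at least 1 bp were merged into regions, and a region called in 2 or 3 of the kainic acid libraries is named a kainic acid region here. There were 73 of these near the family, 29 of them in all 3 lists. Of the 7 genes, 5 had at least 1 kainic acid region, against 40.0% of all protein-coding genes, and 4 had one in all 3 lists, against 23.9%. At least 1 peak of any kind was found at 5, 6 and 4 of the genes in kainic acid replicates 1, 2 and 3 (26.4%, 60.3% and 40.9% of all genes). In the saline lists it was 0, 4 and 0 of the genes, against 0.0137%, 17.0% and 0%. Long genes reach more regions, so each span class has its own background. All 3 genes of 100 kb or more (Grin2a, Grin2b and Grin3a) had a region, against 81.6% of that class, and 2 of them had one in all 3 lists, against 64.3%. So did both genes of 20 to 100 kb (Grin1 and Grin2d), against 48.1%, and both had one in all 3 lists, against 28.4%. Neither gene under 20 kb (Grin2c and Grin3b) had one, against 26.3% of the class (12.7% in all 3 lists). With 7 genes these shares describe the family and were not tested. Every kainic acid list exceeded every saline list in number of peaks at 4 genes, Grin1, Grin2a, Grin2b and Grin2d, against 20.7% of all genes. By span class this was 2 of 3 genes of 100 kb or more against 62.4%, 2 of 2 genes of 20 to 100 kb against 24.0%, and 0 of 2 shorter genes against 9.98%.

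**Figure D2:**
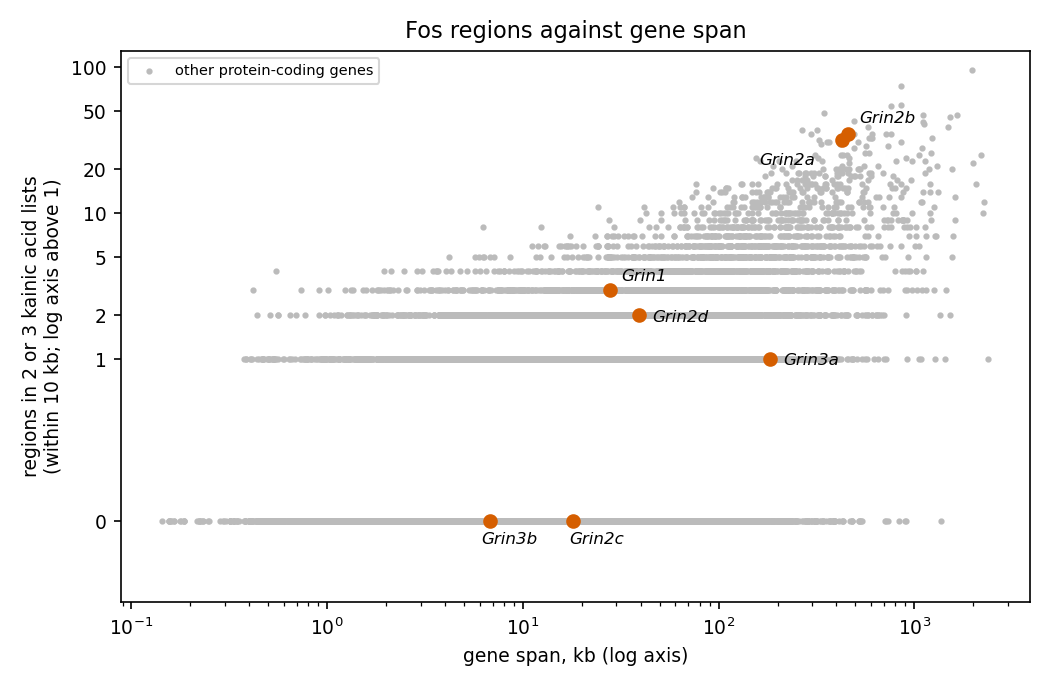
Number of kainic acid regions within 10 kb (vertical, linear to 1 and log above) against gene span in kb (log axis), with 1 grey point per protein-coding gene and the 7 subunit genes in orange. Grin2b with 35 regions and Grin2a with 32 stand near the upper edge for their length, and Grin3a, at 184 kb, has 1.

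Grin1 encodes the subunit that every NMDA receptor contains. Its span of 28.0 kb (chr2:25291177-25319187, minus strand) had 2, 6 and 3 peaks in its window in kainic acid replicates 1, 2 and 3 and none in any saline list. All 3 kainic acid libraries were thus above the saline ones, though in the first the margin was 2 peaks. These were 4.93, 3.35 and 3.63 times the density of each list over all genes. Of the 3 kainic acid regions, 1 lay 2105 bp inside the gene from its start, 1 across the start itself and 1 in the flank, 9165 bp upstream, where it overlaps the non-coding gene AA543186. Other peaks in the window, each in a single list, included 2 that overlap Tmem210, a neighbouring gene.

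The region across the Grin1 start, chr2:25319114-25319715, was the only region in all 3 kainic acid lists within 1 kb of an end of any subunit gene. Its deposited fold, a linear ratio of reads at the summit to the background that the peak caller estimated there, was 2.81, 9.47 and 3.37 in replicates 1, 2 and 3. Ranked within its own list, where a smaller number is a higher fold, that put it in the top 97.7%, 6.32% and 77.6%. The 3 libraries therefore shared the site and differed in its standing, with replicate 2 high and the others low. About 19, 41 and 28 reads lay over the summits, as solved from the deposited fold and −log10 p. The summits were 207, 324 and 167 bp upstream of the annotated start.

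The Grin1 promoter is shown because it is the one subunit promoter under a peak of all 3 kainic acid lists. The sequence is from RefSeq (GRCm38.p6), chr2:25319138-25319437, minus strand, from 250 bases before the start to 50 after it, and the 112 capitals mark bases under the peaks of all 3 lists (chr2:25319326-25319437).
Grin1 promoter: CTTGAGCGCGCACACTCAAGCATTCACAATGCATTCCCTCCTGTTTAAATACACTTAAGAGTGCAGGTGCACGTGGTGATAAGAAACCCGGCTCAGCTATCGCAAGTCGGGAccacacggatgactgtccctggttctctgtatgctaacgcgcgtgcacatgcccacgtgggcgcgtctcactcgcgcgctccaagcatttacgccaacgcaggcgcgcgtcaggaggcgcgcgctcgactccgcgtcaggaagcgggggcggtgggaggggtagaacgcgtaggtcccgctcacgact
Neither the AP-1 motif TGANTCA nor the cyclic AMP response element TGACGTCA occurs on either strand of this window. The window ends short of the replicate 2 summit, 324 bp upstream. The rest of the region, up to chr2:25319715, was not searched, so a motif there is not excluded. TGANTCA occurs in 7.81% of 32851 promoter windows of this length in the RefSeq table, and TGACGTCA in 1.79%.

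**Figure D3:**
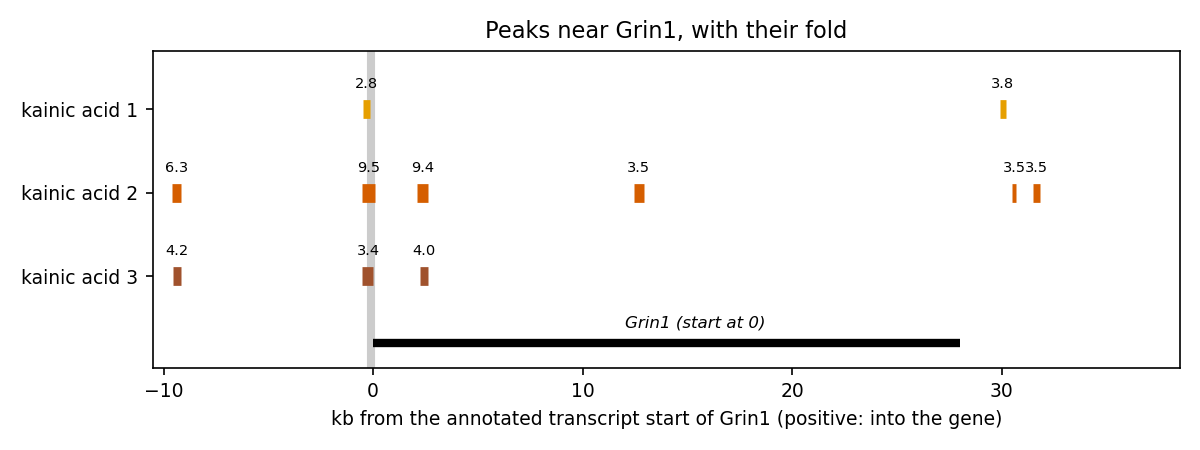
Peaks of the 3 kainic acid lists near Grin1, drawn to scale as kb from the annotated transcript start with positive values inside the gene, and with the deposited fold above each. The grey band is the promoter window whose sequence is given in the text. The site at the start is called in all 3 lists, with folds from 2.81 to 9.47.

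Within Grin1 the region of best mean rank was chr2:25316589-25317082, with folds of 9.45 and 3.97 in replicates 2 and 3 (top 6.42% and 50.9%) and no peak in replicate 1. Without replicate 2 only the region at the start remained near this gene, and with −log10 q of at least 10 none did.

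Grin2a encodes GluN2A, the GluN2 subunit whose share at synapses grows as forebrain neurons mature. Its span of 428 kb (chr16:9567901-9996083) had 15, 72 and 39 peaks in kainic acid replicates 1, 2 and 3 and 0, 1 and 0 in the saline lists. The groups did not overlap, and every kainic acid value was at least 15 peaks. Relative to each list's density over all genes, this was 3.96, 4.30 and 5.06. Of 77 regions with a kainic acid peak, 32 were kainic acid regions and 14 were in all 3 lists. By number of kainic acid regions Grin2a was at place 26 of 21887 genes, and by their density, 7.14 per 100 kb, at place 56 of the 2429 genes of its span class, whose median was 1.21.

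The strongest Grin2a region by mean rank was chr16:9801074-9802294, inside the gene and 193789 bp from its nearer end. Its folds were 5.77, 8.93 and 8.70 in replicates 1, 2 and 3, in the top 18.5%, 7.62% and 3.36%, with about 30, 45 and 49 reads over the summits. The 3 summits fell within 29 bp of each other. Across the 14 regions in all 3 lists, folds ran from 3.23 to 5.77 in replicate 1, from 3.14 to 9.25 in replicate 2 and from 3.14 to 8.70 in replicate 3. The lowest-ranked of them stood at the top 91.1%, 91.1% and 85.5% of their lists, so not every region called in all 3 libraries ranked high. By the highest fold in each region, their median rank was the top 45.5%, 17.2% and 44.8% in replicates 1, 2 and 3. For all Grin2a peaks it was 46.0%, 59.1% and 58.5%.

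Kainic acid regions lay along most of Grin2a but unevenly. The gene table gives no exons, so exonic and intronic sites are not separated here, and it gives no strand for this gene, so positions are counted from the end with the lower coordinate. Of 50 kb bins, the one at 300 to 350 kb held 10 regions, 1 of them in all 3 lists, and the one at 50 to 100 kb held none. The largest distance between neighbouring regions was 96.7 kb. At the end with the higher coordinate, the region chr16:9995436-9996712 joined 2 peaks that overlapped only at their edges. The replicate 2 peak, chr16:9995436-9996287 (fold 4.96), lay across the gene boundary with its summit at 9995587. The replicate 3 peak, chr16:9996254-9996712 (fold 3.58), lay beyond the gene with its summit at 9996515. It was counted as a kainic acid region, but the 2 lists did not share a summit there. A further peak within 1 kb of that end, chr16:9994666-9995103, was in replicate 2 alone (fold 5.13). The saline replicate 2 peak of Grin2a, chr16:9963930-9964131 (fold 3.69, about 11 reads), coincided with no kainic acid peak.

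**Figure D4:**
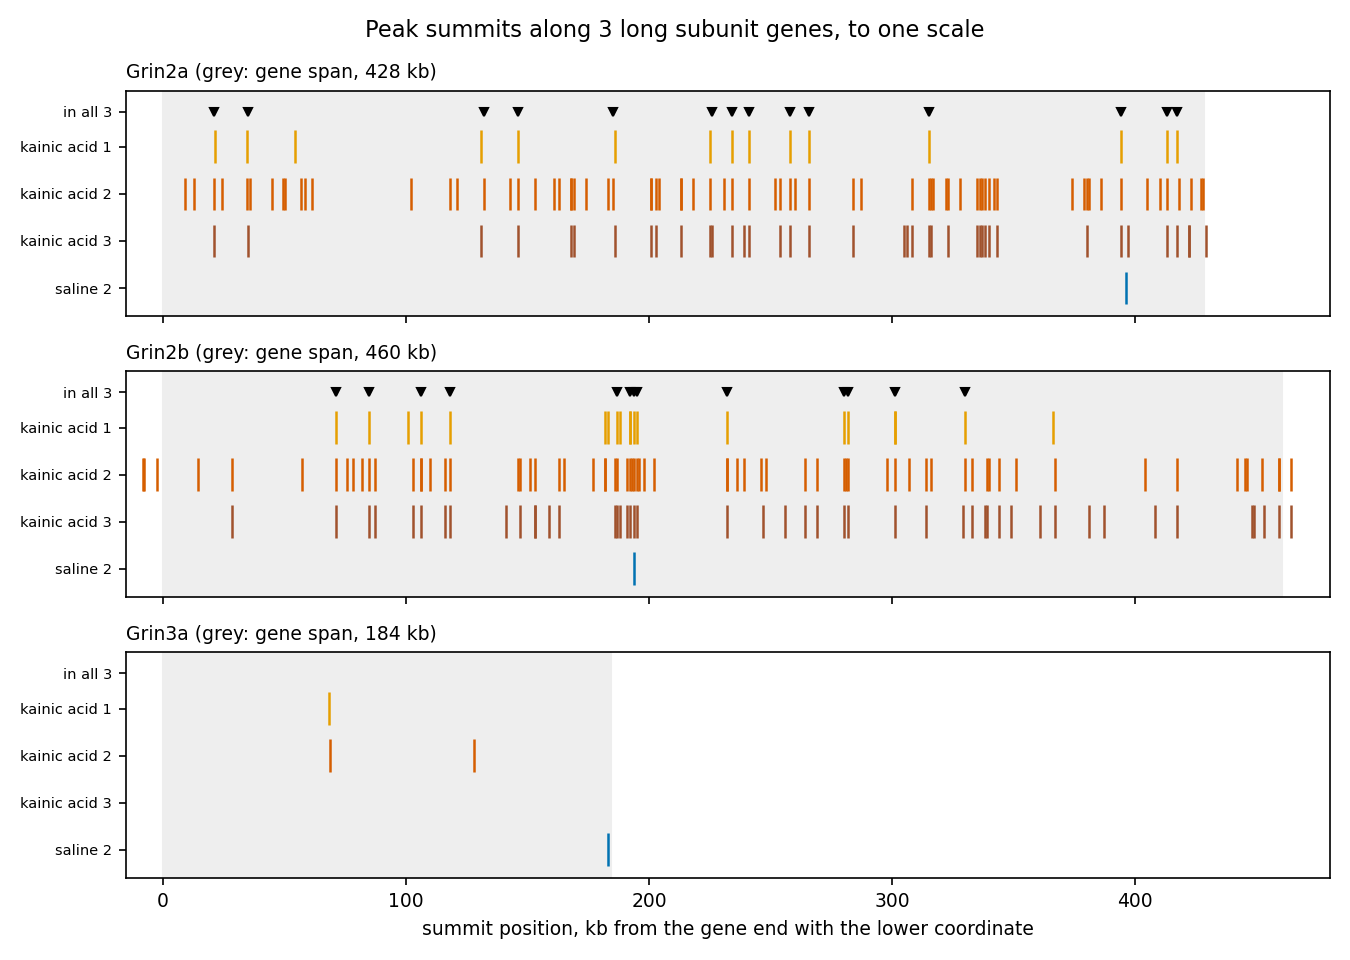
Peak summits along Grin2a, Grin2b and Grin3a in kb from the gene end with the lower coordinate, to one scale, 1 row per list, with triangles over regions in all 3 kainic acid lists (14, 13 and 0). Saline replicates 1 and 3 had no peak in these windows and are not drawn. Summits fill Grin2a and Grin2b, and Grin3a carries 3 kainic acid peaks.

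Grin2b encodes GluN2B, the subunit that predominates early in development and binds the kinase CaMKII. Its span of 460 kb (chr6:135713221-136173615) had 20, 69 and 47 peaks in kainic acid replicates 1, 2 and 3 and 0, 1 and 0 in the saline lists. Again the groups did not overlap, and replicate 1 was the lowest kainic acid library. Relative densities were 4.92, 3.85 and 5.69. There were 81 regions with a kainic acid peak, 35 kainic acid regions and 13 in all 3 lists. Grin2b held place 16 of 21887 genes by number of kainic acid regions and, at 7.29 per 100 kb, place 52 of 2429 by density within its span class.

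The strongest Grin2b region, chr6:135993190-135994182, had folds of 7.78, 7.02 and 7.62 (top 5.64%, 15.6% and 5.75%) with about 34, 25 and 50 reads over the summits. It was more even across the libraries than the Grin1 start site. Among the 13 regions in all 3 lists, folds were 3.36 to 7.78, 4.32 to 11.5 and 3.14 to 7.62 in replicates 1, 2 and 3. The 50 kb bin at 150 to 200 kb from the lower end held 9 kainic acid regions, 4 of them in all 3 lists. Inside it, the densest 15 kb, chr6:135894771-135908548, held 7 regions including those 4.

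One region of that cluster was the only kainic acid region of the family with a saline peak. At chr6:135906869-135907609 the folds were 4.21, 7.74 and 3.92 in kainic acid replicates 1, 2 and 3 and 4.11 in saline replicate 2, with about 21, 36, 29 and 16 reads over the summits. Of all protein-coding genes, 2.98% had a kainic acid region with a saline peak. No kainic acid region lay within 1 kb of an end of Grin2b, where replicate 2 alone had a peak, chr6:136172625-136172841 (fold 2.91). Just past that cutoff, 1045 bp inside the higher end, chr6:136172251-136172570 was called in replicates 2 and 3 (folds 3.75 and 3.24). Of the 35 regions, 34 lay inside the span and 1, chr6:136176981-136177483, lay 3366 bp beyond the higher end. Regions that also overlapped the non-coding genes Gm14329 or Gm14330, which lie within the Grin2b span, were counted for Grin2b.

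The other GluN2 genes had few peaks or none after kainic acid. Grin2c, whose GluN2C subunit is best known from cerebellar granule cells, spans 18.1 kb (chr11:115249169-115267297). It had no peak in any kainic acid list and 1 in saline replicate 2, chr11:115266558-115266964, 333 bp inside the gene from its higher end (fold 5.25, top 9.55%, about 17 reads). That was the highest rank of the 4 saline peaks near the family. A saline peak with no kainic acid region was found at 5.96% of all protein-coding genes. The Grin2c promoter window of the RefSeq table, chr11:115267194-115267493, carried no peak.

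Grin2d encodes GluN2D, a subunit with slow kinetics found in hippocampal interneurons. Its 39.3 kb (chr7:45831883-45871194) had 1, 2 and 2 peaks in kainic acid replicates 1, 2 and 3 and none with saline. The densities were 1.99, 0.903 and 1.96 times those of the lists over all genes. Both kainic acid regions were inside the gene. The region chr7:45853409-45854210 was in all 3 lists with folds of 4.32, 3.49 and 3.14 (top 52.3%, 81.6% and 86.1%). The region chr7:45848287-45848639 had folds of 7.83 and 2.49 in replicates 2 and 3. Neither had −log10 q of at least 5 in 2 lists. The nearest summit was 12628 bp from the transcript start in the RefSeq promoter table.

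The GluN3 genes had 1 kainic acid region between them, at Grin3a. Grin3a, whose subunit lowers calcium permeability and is prominent during development, spans 184 kb (chr4:49661611-49846023). It had 1, 2 and 0 peaks in kainic acid replicates 1, 2 and 3 and 0, 1 and 0 with saline, so the groups overlapped. Its single kainic acid region, chr4:49729919-49730368, was in replicates 1 and 2 with folds of 4.56 and 3.40 (top 43.0% and 84.2%) and was lost without either of them. At 0.489 regions per 100 kb Grin3a held place 1795 of 2429 genes of its span class. Its saline replicate 2 peak, chr4:49844714-49844915 (fold 3.75, about 14 reads), lay 1108 bp inside the higher end, away from any kainic acid peak.

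Grin3b encodes GluN3B, known mainly from motor neurons. Its 6.79 kb (chr10:79970397-79977190) had peaks in kainic acid replicate 2 only, 0, 2 and 0 over the 3 kainic acid lists, and none with saline. Both were at least 8299 bp beyond the gene, past Tmem259, and the nearer one overlapped Gm26243. No region was replicated. The Grin3b promoter is shown because it is the only subunit promoter in the RefSeq table with a TGANTCA match, and no peak of any list lay on it. The window is chr10:79970474-79970773 (GRCm38.p6), plus strand, and the capitals mark the match, whose first base is 124 bp upstream of the annotated start.
Grin3b promoter: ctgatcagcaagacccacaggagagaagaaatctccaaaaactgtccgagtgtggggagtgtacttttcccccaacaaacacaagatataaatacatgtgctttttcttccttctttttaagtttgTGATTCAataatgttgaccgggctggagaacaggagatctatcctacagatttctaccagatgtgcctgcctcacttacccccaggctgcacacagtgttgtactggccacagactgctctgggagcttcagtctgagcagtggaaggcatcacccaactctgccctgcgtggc
The RefSeq promoter table matched 4 of the 7 genes (Grin1, Grin2c, Grin2d and Grin3b). The match is a description of letters and not of a bound site. Sequence under the Grin2a and Grin2b peaks was not used here.

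Ordered by density relative to each list, averaged over the 3 kainic acid lists, the genes ran Grin2b (4.82 ± 0.924, SD, n = 3), Grin2a (4.44 ± 0.563), Grin1 (3.97 ± 0.841), Grin2d (1.62 ± 0.620), Grin3b (0.667 ± 1.15), Grin3a (0.280 ± 0.290) and Grin2c (0). Grin2b, Grin2a and Grin1 did not differ from the next of these 3 beyond the spread. The Grin1 value rests on few peaks (2, 6 and 3 in replicates 1, 2 and 3), most with summits outside its span. Grin2b exceeded Grin2a by 0.379 ± 0.743 and was higher in 2 of 3 lists. Grin1 exceeded Grin2d by 2.35 ± 0.635 and was higher in 3 of 3 lists, a difference larger than its SD. Below Grin2d, neighbours differed by less than the SD of their differences. Among the long genes, Grin2b exceeded Grin3a by 4.54 ± 1.06 and Grin2a exceeded it by 4.16 ± 0.846, each in 3 of 3 lists. With 3 lists the two-sided exact sign-flip permutation test cannot go below p = 0.250, which these 3 differences reached (0.667 after Benjamini-Hochberg adjustment over 8 comparisons).

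The peaks near the family were many but seldom among the highest of their lists. In kainic acid replicates 1, 2 and 3, the top 10% by fold held 1 of 39, 9 of 153 and 3 of 91 family peaks. These shares were 2.56%, 5.88% and 3.30%, against 9.52%, 9.23% and 9.18% of the peaks in windows of all genes of 100 kb or more. The median rank of family peaks was the top 52.3%, 56.6% and 60.5%, against 52.3%, 50.8% and 52.1% for peaks at long genes. A −log10 q of at least 10 was reached by 10.3%, 26.1% and 13.2% of family peaks, against 21.9%, 27.8% and 26.8%. All 3 lists thus had a smaller share of family peaks in the top 10% than of long-gene peaks. Peaks of a gene share their library and local background, so no test was made over them.

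**Figure D5:**
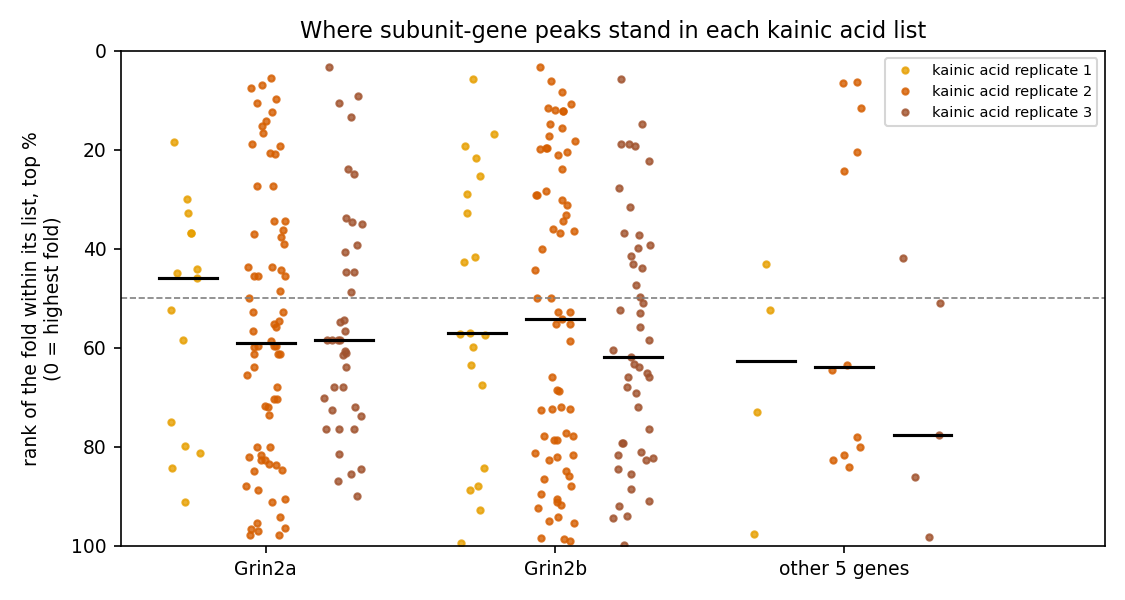
Rank by fold of every kainic acid peak near Grin2a, Grin2b and the other 5 subunit genes within its own list (0% is the highest fold), 1 point per peak, black bars at medians, dashed line at the list's median. Medians are 46.0%, 59.1% and 58.5% for Grin2a and 57.1%, 54.2% and 61.8% for Grin2b in replicates 1, 2 and 3, and few points lie in the top 10%.

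Replicate support was like that of the series as a whole. Of 171 regions with a kainic acid peak near the family, 42.7% were in at least 2 lists and 17.0% in all 3, against 40.3% and 17.9% of 66683 regions of the series. Replicate 1 had the fewest peaks, and 89.7% of its 39 family peaks lay in a region with a replicate 2 peak. Of the 153 family peaks of replicate 2, 22.9% shared a region with one of replicate 1. The count of 73 regions therefore rests on replicates 2 and 3 together, and was 29 without replicate 2 and 33 without replicate 3. Grin2a then kept 14 regions in both cases, and Grin2b 13 and 16.

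The gene whose peak numbers were most like those of Grin2b, the member with most regions, was Ank3, which encodes the axonal scaffold ankyrin-G. Likeness was the Euclidean distance of log2(peaks per 100 kb + 1) over the 6 lists, among 10038 other protein-coding genes of at least 20 kb. Ank3 had 21, 76 and 45 peaks in the kainic acid lists and 0, 1 and 0 in the saline lists over 494 kb (distance 0.152). Sorl1, a sortilin-family sorting receptor (0.290), and Zfp608, a zinc finger gene (0.314), came next, and Grin2a was at place 4 (0.329). Grin1 was at place 114, Grin2d at 2048 and Grin3a at 6966.

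AMPA and kainate receptor genes also split into densely and sparsely covered ones. Of the 4 AMPA receptor genes, 3 had a kainic acid region. Gria1 had 37 regions and 17, 72 and 45 kainic acid peaks, and Gria2 had 10 regions. Gria3, which spans 278 kb, had none and 0, 2 and 0 peaks. All 5 kainate receptor genes had a region, with Grik4 at 21 and Grik1 and Grik3 at 2 each. All 4 AMPA and 4 of the 5 kainate receptor genes span 100 kb or more, a class in which 81.6% of genes had a region, so these counts are near the background. The median density was 3.37 regions per 100 kb over the 7 NMDA receptor genes, 3.75 over the AMPA list and 1.26 over the kainate list. It was 0 over all protein-coding genes and 1.21 over those of 100 kb or more.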

How the data were processed

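Fos ChIP-seq peak lists from 3 saline and 3 kainic acid hippocampal libraries were analysed, grouped by the labels. The input library was not analysed here. Per the submitters' processing notes, the authors used Trim Galore 0.6.4, Bowtie2 2.3.4.3, MACS2 and deepTools 3.5.0 with build mm10, and a mapping quality of 30 is part of each peak's name. The caller's threshold and control are not given in the sources used here. Each deposited list belongs to 1 library and gives, in the peak caller's format, a fold enrichment (a linear ratio at the summit), the −log10 p and −log10 q values and an integer score made by the authors' peak caller. The lists hold no read totals, so library depth is unknown and the length of a list stands beside each comparison.

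Gene spans came from the RefSeq GRCm38.p6 table, which gives neither strand nor exons. A peak belonged to a gene when it overlapped the span or 10 kb on either side. Densities were peaks per 100 kb of that window, divided for comparison by the density of the same list over the merged windows of all 21887 protein-coding genes. Reads and background at a summit were solved from fold = (reads + 1)/(background + 1) and the Poisson −log10 p, which fitted 287 of 287 peaks within a relative 0.001. The group test was a two-sided exact permutation of log10(peaks + 1) over libraries, and genes were compared by an exact sign flip over the kainic acid lists. For shares, 95% intervals are exact (Clopper-Pearson). Scripts used Python 3.11.15, pandas 2.3.3 and scipy 1.17.1 and were tested on simulated peaks.

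The named regions are each gene's best by mean rank of fold over the kainic acid lists where it was called, those within 1 kb of an annotated start or gene end, those with a saline peak, and those in all 3 kainic acid lists (for Grin2a and Grin2b by number and range). Of the other gene lists, the genes with most regions and with none are named, and further genes were chosen after their values were seen. Some results of these lists are not reported here. The members and all gene lists were chosen with earlier results of these data known. Alternatives were stricter q values, other reaches and overlaps, lists of equal length, the share of each list, rank by q, a replicate block and leaving out each library.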

Additional observations from a re-analysis of the deposited data

How the results depend on the processing

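The 73 kainic acid regions near the subunit genes became 37 at a minimum −log10 q of 5, 12 at a minimum of 10, 29 when all 3 kainic acid lists were required, 171 when any 1 sufficed and 27 with kainic acid lists of equal length, and 29 to 73 with 1 library left out (29 without kainic acid replicate 2, 33 without replicate 3). Genes with such a region numbered 2 in place of 5 at a minimum −log10 q of 10 and 3 with equal lengths. Kainic acid regions with a saline peak numbered 1, but 0 at a minimum −log10 q of 5, 0 at one of 10 and 2 with a reach of 50 kb, and ranged from 0 (without saline replicate 2) to 1 with 1 library left out. The difference in log10(peaks + 1) ran from 1.14 (minimum −log10 q of 10) to 1.92 (without saline replicate 2). Grin2a and Grin2b kept the most regions under each alternative, 6 each at that minimum, where the other 5 genes had 0. The mean rank of the best Grin1 region moved from the top 28.6% to 87.7% without kainic acid replicate 2. Of 310 alternative values, 90 of them for the other gene lists, 258 were counted as unchanged. Ranks had to stay within the spread and counts within 1.5 times. For the log10 difference, including the replicate block and the share of each list, a positive value counted as unchanged. Rank alternatives that left a gene without a region are not among the 310. The log10 difference stayed positive under each alternative. Equal list lengths and stricter q leave fewer peaks by construction. Counts and ranks of kainic acid regions hardly use the saline lists, so leaving out a saline library left them unchanged almost by construction. These values are among the 258, which is therefore no measure of how robust the results are.

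With the replicate number as a replicate block, the difference was 1.68 with p = 0.250 by exact sign flip, the smallest value 3 pairs allow. Whether the numbers pair the libraries could not be decided. Same-numbered libraries correlated at 0.0858, 0.0552 and −0.0325, and other numbers at −0.0861 to 0.0862. Saline replicates 1 and 3 have only 7 and 2 peaks. Each kainic acid list thus had nearly the same size of correlation with every saline list, and only the sign changed.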

Other observations

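Genes for proteins that work with NMDA receptors also had kainic acid regions. Of 11 scaffold genes, 10 had one, against 40.0% of all protein-coding genes, and 9 had one in all 3 lists, against 23.9%. Of the 11, 5 span 100 kb or more, a class in which these shares are 81.6% and 64.3%. Dlg2, which encodes the postsynaptic scaffold PSD-93, had 96 regions, the most of all 21887 protein-coding genes, and Shank3 had none. Dlg2 spans 1973 kb, and its 4.82 regions per 100 kb were below the 7.14 of Grin2a and 7.29 of Grin2b. Of 17 signalling genes, 5 of them of 100 kb or more, 16 had a region and 12 had one in all 3 lists, with Ppp3ca, a catalytic subunit of calcineurin, at 37, and Csnk2a1 at 0. Among genes of co-agonist supply, Srr had 2 regions and Slc6a9 had 1, while Dao, Slc1a4 and Slc7a10 had none. The median span was 71.3 kb over the scaffold list and 62.9 kb over the signalling list, against 17.2 kb over all genes.

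Marker genes of hippocampal cell types were counted in the same way, in lists too short to compare with each other. A kainic acid region was found at 5 of 7 for excitatory neurons (none at Neurod6 or Slc17a7), 2 of 6 for inhibitory neurons, 4 of 6 for astrocytes, 2 of 7 for the oligodendrocyte lineage, 1 of 6 for microglia and 2 of 5 for endothelial cells. The median spans of these lists ran from 11.9 to 61.1 kb, and the share of all genes with a region was 26.3% under 20 kb and 48.1% from 20 to 100 kb. Peaks near a marker do not measure its expression, and the part of each cell type in the subunit gene peaks was not tested.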
